A study of Rattus norvegicus with 12 samples.

Results

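The genes described here mark the outer covering of the heart, the epicardium, and the mesothelium of which it is a part. They are Msln, Upk3b, Upk1b, Lrrn4, Krt18, Krt19, Wt1, Tbx18 and Tcf21, which were chosen by symbol with earlier results of these data known. All 9 had counts among the 21239 genes with counts in the table. Levels are given as CPM, the count of a gene divided by the total count of its library and scaled to 1e+06, with no correction for gene length, so that they compare libraries and not genes.

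Left atrial RNA of 12 male rats was sequenced, with 1 library a rat and 3 libraries in each of 4 groups. WKY rats, a normotensive strain, and spontaneously hypertensive rats of the SHR group received saline (7.5 ml/kg/day). Valsartan at 30 mg/kg/day, which blocks the angiotensin receptor, went to spontaneously hypertensive rats in the ARB group. Sacubitril/valsartan at 60 mg/kg/day, in which a neprilysin inhibitor is added, went to such rats in the ARNI group. Treatment lasted 4 weeks, and the age at purchase was 14 weeks. Treated libraries carry WKY as their strain label and SHR as their phenotype. Part of each atrium went to RNA and the rest to histology, so the share of outer surface in the piece sequenced was set by the dissection and is not known.

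The labels and markers limit every comparison with the WKY group, and the markers also limit the comparisons among the SHR, ARB and ARNI groups. In 6 libraries (3 WKY and 3 SHR) the titles name one strain in words and the other in the library name, and the libraries were grouped by the name. Mettl24, a gene picked out in an earlier analysis of these data, was at 3.58, 3.30 and 3.02 CPM in the libraries named WKY but at most at 0.0688 CPM in the other 9. The atrial markers (Myl7, Myl4, Sln, Nppa and Bmp10, all with counts) summed to 52.3 to 280.2 CPM in WKY libraries and to 73.5 CPM in ARNI replicate 2, against 27309 to 76271 CPM in the other 8. The ventricular markers (Myl2, Myl3, Myh7 and Irx4) summed to 43253 to 43575 CPM in WKY libraries and to 18544 CPM in ARNI replicate 2. They were also at 9819 CPM in SHR replicate 2 and 10610 CPM in ARB replicate 3, beside 370 to 930.5 CPM in the remaining 6. The libraries of the WKY group and ARNI replicate 2 therefore go against their label of left atrium, and SHR replicate 2 and ARB replicate 3 held transcripts of both chambers. Strain and chamber cannot be told apart between the WKY and SHR groups. SHR replicate 2, ARB replicate 3 and ARNI replicate 2 enter the treatment comparisons, where chamber and treatment cannot be fully told apart.

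The epicardium is a sheet of mesothelial cells that lines the outside of the heart, much as the pleura lines the lung. Mesothelial cells carry surface glycoproteins such as mesothelin and uroplakins, and keratins as epithelial cells do. During development, epicardial cells that express Wt1, Tbx18 and Tcf21 give rise to fibroblasts and mural cells of the heart, and in the adult heart these transcription factors are also found in cells other than the epicardium, such as fibroblasts (Tcf21) and endothelial cells (Wt1).

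Upstream sequences were searched for short motifs of transcription factors known from the epicardium, because several of these genes moved together. The windows were the 250 bases before the gene start (RefSeq, GRCr8), which were found for 7 of the 9 genes. Both strands were searched. The letters GGAATG stand for the motif of the TEAD factors. For WT1 the letters were GTGGGAG. For the GATA factors they were AGATAA. The TEAD motif lay in 2 of the 7 windows and in 12.1% of 33469 promoters. The GATA motif lay in 1 of the 7 and in 10.3% of all, and the WT1 motif in 0 of the 7 and 7.51% of all. The 3 windows with a match are shown 5′ to 3′ with the match in capitals. That of Upk1b lay at chr11:75459131-75459380 (plus strand) with its match starting 178 bases before the gene start, that of Lrrn4 at chr3:140603987-140604236 (minus strand) with its match 214 bases before it, and that of Tcf21 at chr1:24520249-24520498 (plus strand) with its match 49 bases before it. In Upk1b and Lrrn4 the TEAD motif is on the opposite strand and reads CATTCC.
Upk1b: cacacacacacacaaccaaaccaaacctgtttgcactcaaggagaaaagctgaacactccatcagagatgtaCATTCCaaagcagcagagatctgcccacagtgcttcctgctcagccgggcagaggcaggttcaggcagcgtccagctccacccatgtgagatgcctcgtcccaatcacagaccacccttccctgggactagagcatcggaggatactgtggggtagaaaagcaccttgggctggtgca
Lrrn4: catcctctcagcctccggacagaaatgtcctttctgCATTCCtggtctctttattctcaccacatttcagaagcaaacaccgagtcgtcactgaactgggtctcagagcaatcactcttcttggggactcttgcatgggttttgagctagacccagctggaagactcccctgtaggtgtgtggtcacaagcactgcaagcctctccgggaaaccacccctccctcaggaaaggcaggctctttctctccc
Tcf21: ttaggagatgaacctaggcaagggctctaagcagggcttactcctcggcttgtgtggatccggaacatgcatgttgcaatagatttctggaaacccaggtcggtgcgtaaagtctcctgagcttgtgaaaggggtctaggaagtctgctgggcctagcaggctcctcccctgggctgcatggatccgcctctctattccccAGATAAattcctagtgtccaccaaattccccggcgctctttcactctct

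The mesothelial surface genes were several-fold higher in SHR than in WKY libraries. Msln, Upk3b, Upk1b and Lrrn4 rose, as did the keratin gene Krt19 and the transcription factor gene Tbx18, whereas Wt1 and Tcf21, the other epicardial transcription factor genes, did not pass the test. This was a comparison of hypertensive and normotensive rats by edgeR's quasi-likelihood test over 13794 genes, in which a gene was called when its log2 fold change was at least 1 in size and its Benjamini-Hochberg adjusted p at most 0.05. All 9 genes were tested, 6 were called and all 6 were higher in the SHR group, while of all genes tested 5.54% were called higher and 8.89% in either direction. DESeq2 called 7 of the 9, against 10.4% of all genes. In 1 fit of 12 libraries, 2 of the 9 were called (Upk1b and Krt19), against 4.01% of all genes, and the adjusted p by edgeR was 0.0877 for Msln, 0.0629 for Upk3b, 0.0777 for Lrrn4 and 0.0573 for Tbx18. Without WKY replicate 2 there were 2 (Upk1b and Tbx18), against 2.49%, and without WKY replicate 3 there were 3 (Upk1b, Krt19 and Tbx18), against 2.46%. The p-values measure the spread between these samples only. In 7 of the 9 genes the 3 SHR values lay above the 3 WKY values, as in 33.7% of all genes tested. The median log2 fold change was 2.03 over the 9 genes and 0.01 over all genes tested. In bulk tissue, fewer cells of a type and less RNA per cell cannot be told apart, and the atrial and ventricular marker sums given above moved with this contrast. So did some markers of other cell types. All 4 smooth muscle and pericyte genes had log2 fold changes below 0, and Myh11 fell (-1.13, adjusted p = 0.0421, edgeR). Their sum was 238.8 to 295.9 CPM in WKY and 136 to 205 CPM in SHR libraries. Of the 4 macrophage genes, Cd163 fell (-1.33, adjusted p = 0.0341, edgeR). Of the 5 endothelial genes 0 were called, and their directions differed. Cdh5 was at -0.79 (adjusted p = 0.0265, edgeR), Kdr at -0.57 and Tie1 at -0.25, but Pecam1 at 0.15 and Vwf at 0.57. The endothelial sum was 901 to 971 CPM in WKY and 796 to 1252 CPM in SHR libraries. The part of these cells in the mesothelial levels was not tested.

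**Figure D1:**
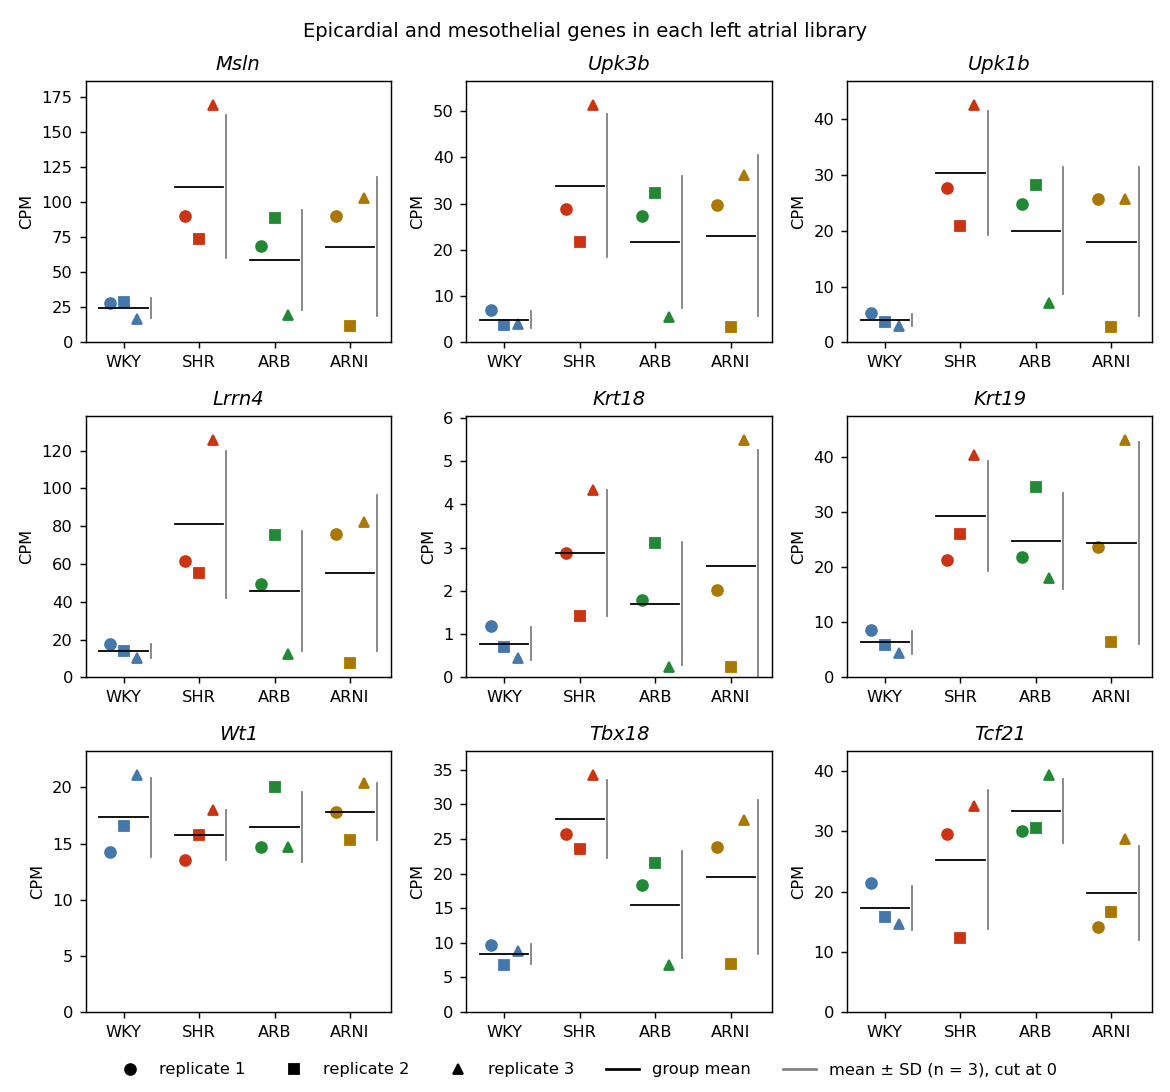
CPM of the 9 genes (panels) in each library, with groups on the x axis, points for libraries by replicate, black lines for group means and grey lines for mean ± SD (n = 3). In Msln, Upk3b, Upk1b, Lrrn4 and Tbx18, ARB replicate 3 and ARNI replicate 2 lie near the WKY libraries, while Wt1 stays between 13.6 and 21.2 CPM.

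Msln (gene ID 60333) encodes mesothelin, a glycoprotein anchored in the membrane of mesothelial cells. It was at 28.3, 28.6 and 16.5 CPM in WKY libraries, 90.1, 73.7 and 169.6 CPM in SHR libraries, 68.7, 88.9 and 19.5 CPM in ARB libraries and 90.2, 11.6 and 103 CPM in ARNI libraries (replicates 1 to 3, as for all values below). The SHR libraries were all above the WKY libraries, and ARB replicate 3 and ARNI replicate 2 were far below the other treated libraries. The mean rose from 24.5 ± 6.89 CPM in the WKY group to 111 ± 51.3 CPM in the SHR group (SD, n = 3). The log2 fold change was 2.03 (SE 0.33, edgeR adjusted p = 0.0130). Without WKY replicate 1, 2 or 3 the adjusted p of Msln was 0.0564, 0.0593 and 0.0564, and with the replicate number as a block it was 0.0562.

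Upk3b (360790) and Upk1b (303924) belong to the uroplakins, membrane proteins first known from the bladder, of which the former marks mesothelium. Upk3b was at 7.08, 3.83 and 3.91 CPM in WKY libraries, 28.8, 21.6 and 51.3 CPM in SHR libraries, 27.4, 32.3 and 5.47 CPM in ARB libraries and 29.7, 3.38 and 36.1 CPM in ARNI libraries. Its values in ARB replicate 3 and ARNI replicate 2 were within or below the range of the WKY libraries. Its log2 fold change between the SHR and WKY groups was 2.62 (SE 0.37, edgeR adjusted p = 0.00870), and its adjusted p was 0.0524 without WKY replicate 2 and 0.0519 without WKY replicate 3. Upk1b, a tetraspanin, was at 5.29, 3.74 and 3.02 CPM in WKY libraries, 27.8, 20.8 and 42.6 CPM in SHR libraries, 24.9, 28.3 and 7.06 CPM in ARB libraries and 25.8, 2.67 and 25.7 CPM in ARNI libraries. The lowest SHR library had several times the level of the highest WKY library. The log2 fold change of Upk1b was 2.77 (SE 0.30, edgeR adjusted p = 0.00438), the highest of the 9 genes.

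Lrrn4 (311443), a leucine-rich repeat membrane protein also used as a mesothelial marker, was at 17.9, 13.7 and 10.2 CPM in WKY libraries, 61.8, 55.3 and 126 CPM in SHR libraries, 49.4, 75.5 and 12.2 CPM in ARB libraries and 75.7, 7.64 and 82.1 CPM in ARNI libraries. Again SHR replicate 3 was the highest of all libraries and ARNI replicate 2 the lowest. The log2 fold change was 2.38 (SE 0.34, edgeR adjusted p = 0.00877), with an adjusted p of 0.0542 without WKY replicate 2 and 0.0506 without WKY replicate 3. The deposited counts of Lrrn4 were not whole in any library, so part of its reads was shared with other genes by the counting.

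The keratins are the intermediate filaments of epithelial and mesothelial cells. Krt19 (360626) was at 8.61, 5.91 and 4.44 CPM in WKY libraries, 21.3, 25.9 and 40.4 CPM in SHR libraries, 21.8, 34.5 and 17.9 CPM in ARB libraries and 23.6, 6.45 and 43.1 CPM in ARNI libraries. In ARB replicate 3, Krt19 was above every WKY library, as was Upk1b, while Msln, Upk3b and Lrrn4 were within the WKY range. Its log2 fold change was 2.06 (SE 0.30, edgeR adjusted p = 0.00940), and its adjusted p without WKY replicate 2 was 0.0572. Krt18 (294853), the partner of Krt8 in simple epithelia, was the least abundant of the 9 in counts, with 14, 8 and 5 counts in the WKY libraries and 43, 18 and 64 counts in the SHR libraries. It had 3 counts each in ARB replicate 3 and ARNI replicate 2, the number taken here as the limit that a count of 0 allows. In CPM it was at 1.19, 0.696 and 0.444 in the WKY libraries, 2.88, 1.42 and 4.34 in the SHR libraries, 1.79, 3.10 and 0.238 in the ARB libraries and 2.02, 0.236 and 5.496 in the ARNI libraries. The SHR values lay above the WKY values, but the log2 fold change of 1.72 missed the threshold (SE 0.50, edgeR adjusted p = 0.0533). It passed with DESeq2 (adjusted p = 0.0278), without scaling factors (0.0451) and without SHR replicate 2 (0.0113).

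Tbx18 (315870), a T-box transcription factor of the epicardium and the sinus node, was at 9.63, 6.78 and 8.80 CPM in WKY libraries, 25.7, 23.6 and 34.3 CPM in SHR libraries, 18.3, 21.5 and 6.74 CPM in ARB libraries and 23.8, 6.92 and 27.8 CPM in ARNI libraries. It followed the surface genes, with the lowest levels in the WKY libraries, ARB replicate 3 and ARNI replicate 2, over a narrower range. Its log2 fold change was 1.58 (SE 0.18, edgeR adjusted p = 0.00489), and it was called without any 1 of the 6 libraries.

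Wt1 (24883), a zinc finger transcription factor needed for the epicardium to form, was at 14.2, 16.6 and 21.2 CPM in WKY libraries, 13.6, 15.8 and 18.0 CPM in SHR libraries, 14.7, 20.1 and 14.7 CPM in ARB libraries and 17.8, 15.3 and 20.4 CPM in ARNI libraries. The groups overlapped, and the highest of the 12 values was 1.56 times the lowest, where that of Msln was 14.6 times the lowest. The log2 fold change of Wt1 between the SHR and WKY groups was -0.27 (SE 0.18, edgeR adjusted p = 0.301). Tcf21 (252856), a basic helix-loop-helix factor of epicardium and fibroblasts, was at 21.4, 15.8 and 14.7 CPM in WKY libraries, 29.6, 12.2 and 34.1 CPM in SHR libraries, 30.0, 30.5 and 39.4 CPM in ARB libraries and 14.1, 16.6 and 28.6 CPM in ARNI libraries. The highest of the 12 values was in ARB replicate 3, one of the libraries in which the surface genes were low, and the lowest was in SHR replicate 2. Its log2 fold change was 0.40 (SE 0.34, edgeR adjusted p = 0.420). Without SHR replicate 2 the log2 fold change of Tcf21 was 0.71 with an adjusted p of 0.0171, below the threshold on fold change. The 6 fibroblast markers summed to 1338 to 1527 CPM in WKY libraries and to 1205, 846.4 and 2891 CPM in SHR libraries. Within the SHR group, replicate 2 was again the lowest and replicate 3 the highest. Over the 12 libraries the fibroblast sum was lowest in ARNI replicate 1 (823.5 CPM) and highest in SHR replicate 3. In ARB replicate 3, which had the highest Tcf21, it was 1699 CPM.

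Ratios between genes within a library do not depend on the scaling of the libraries. Per 100 counts of Msln there were 47.8 to 84.9 counts of Lrrn4 over the 12 libraries (median 70.2), 13.4 to 39.8 of Upk3b (median 29.8) and 13.1 to 36.2 of Upk1b (median 26.7). These ratios varied 1.78-fold, 2.98-fold and 2.77-fold, while the level of each of the 3 genes varied over 15-fold. Those of Upk3b were 13.4 to 25 in the WKY libraries and 28.0 to 39.8 in the others. For Upk1b they were 13.1 to 18.7 and 23.0 to 36.2, while the ratios of Lrrn4 overlapped. The counts of Wt1 per 100 of Msln ranged from 10.6 in SHR replicate 3 to 132 in ARNI replicate 2, and those of Tcf21 from 15.6 in ARNI replicate 1 to 202 in ARB replicate 3. Krt19 ranged from 20.7 per 100 in WKY replicate 2 to 91.9 in ARB replicate 3.

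The 2 treatment comparisons with the SHR group and the comparison of the treated groups asked whether the drugs shifted these genes, and in none of them was any of the 9 genes called. By edgeR, 0 of the 9 were called between the ARB and SHR groups, the ARNI and SHR groups, and the ARNI and ARB groups, as were 0% of the 13979, 13955 and 13948 genes tested. DESeq2 also called 0 of the 9 in each, and 0.0163%, 0.0378% and 0.0974% of all genes. At an unadjusted p under 0.05, the counts among the 9 were 0, 0 and 1, beside 1.61%, 1.63% and 3.86% of all genes tested. The ARB and ARNI comparisons share the SHR libraries and are not independent. All of these comparisons include libraries with ventricular transcripts, so chamber and treatment cannot be fully told apart in them.

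Between the ARB and SHR groups the log2 fold change was -0.89 for Msln (SE 0.52), -0.62 for Upk3b (0.58), -0.58 for Upk1b (0.47) and -0.81 for Lrrn4 (0.59). The keratins were at -0.73 for Krt18 (0.74) and -0.22 for Krt19 (0.28). For Tbx18 it was -0.83 (0.37, unadjusted p = 0.0602 and adjusted p = 0.9998, edgeR), and its 3 ARB values lay below its 3 SHR values, as in 2.99% of all genes tested. No gene of the 9 lay wholly higher in the ARB libraries, as 2.4% of all genes did. Wt1 was at 0.09 (0.16) and Tcf21 at 0.45 (0.35). For Msln, Upk3b, Upk1b and Lrrn4, ARB replicate 3 lay far below replicates 1 and 2, and the SE was up to 0.59. Without SHR replicate 2 and ARB replicate 3, a choice made after seeing the data that leaves 2 libraries a group, the values were -0.69 for Msln, -0.39 for Upk3b, -0.37 for Upk1b, -0.56 for Lrrn4 and -0.56 for Tbx18, and 0 of the 9 were called.

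Between the ARNI and SHR groups the log2 fold change was -0.66 for Msln (SE 0.71), -0.52 for Upk3b (0.74), -0.71 for Upk1b (0.72), -0.52 for Lrrn4 (0.77) and -0.47 for Tbx18 (0.44). That of Krt18 was -0.12 (0.90), that of Krt19 -0.23 (0.59), that of Wt1 0.25 (0.15) and that of Tcf21 -0.27 (0.41). ARNI replicates 1 and 3 were within the SHR range for Msln, Upk3b, Upk1b, Lrrn4 and Tbx18, and ARNI replicate 2 was below all SHR libraries. For 0 of the 9 genes did the 3 ARNI values lie wholly below or wholly above the SHR values, as in 5.19% and 1.37% of all genes tested. Without SHR replicate 2 and ARNI replicate 2 the values were -0.36 for Msln, -0.22 for Upk3b, -0.39 for Upk1b, -0.19 for Lrrn4 and -0.16 for Tbx18.

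The dose of valsartan within the combined drug is not given in the sources used here. Between the ARNI and ARB groups the log2 difference was 0.24 for Msln (SE 0.79), 0.12 for Upk3b (0.87), -0.12 for Upk1b (0.80) and 0.31 for Lrrn4 (0.88). Each of these differences was smaller than its SE. Krt18 was at 0.63 (1.08), Krt19 at 0.0012 (0.58), Wt1 at 0.17 (0.15) and Tbx18 at 0.37 (0.55). Tcf21 was at -0.72 (SE 0.29, unadjusted p = 0.0438, adjusted p = 0.993, edgeR), and its 3 ARNI values lay below its 3 ARB values, as in 7.52% of all genes tested.

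**Figure D2:**
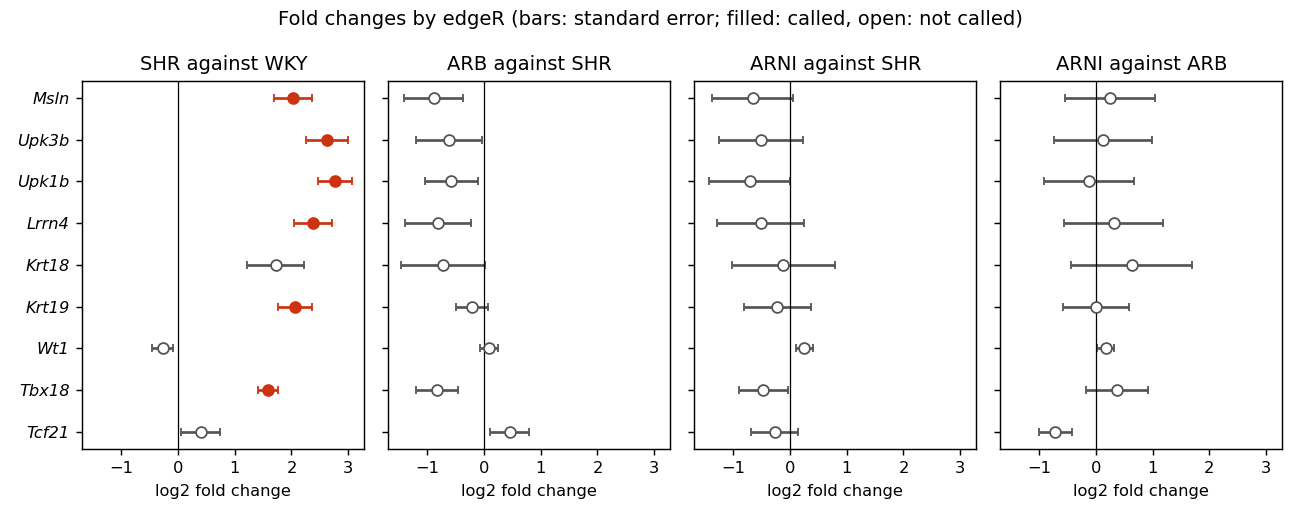
Log2 fold changes by edgeR (x axis) of the 9 genes (y axis) in the 4 comparisons, with bars for the standard error and filled points for genes called. The 6 filled points, from 1.58 to 2.77, are all in the comparison of the SHR and WKY groups, and 0 points are filled in the other 3 comparisons.

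Across the 4 groups in 1 fit of 12 libraries, 0 of the 9 genes passed an adjusted p of 0.05 by edgeR's F test, beside 3.56% of all 14452 genes. At an unadjusted p under 0.05 there were 4 of the 9, beside 25.3% of all. The adjusted p was 0.116 for Krt19, 0.133 for Upk1b, 0.166 for Tbx18, 0.191 for Upk3b, 0.233 for Lrrn4 and 0.264 for Msln. Without ARNI replicate 2, 5 of the 9 passed (Upk3b, Upk1b, Lrrn4, Krt19 and Tbx18), and with DESeq2 3 passed (Upk3b, Upk1b and Krt19). Over all genes the number passing also rose with DESeq2 and changed widely with the library left out, by the counts given below. The number of all genes passing in the single fit without ARNI replicate 2 is not given, so 5 of the 9 cannot be set against it. The higher counts are therefore not read as particular to the 9 genes. Ordered by group mean, the WKY group was the lowest and the SHR group the highest for Msln, Upk3b, Upk1b, Lrrn4, Krt18, Krt19 and Tbx18, with the ARB and ARNI groups between them. For all 9 genes the libraries of neighbouring groups in that order overlapped. The means of the treated groups include ARB replicate 3 and ARNI replicate 2, which held ventricular transcripts. By group median, the ARNI group was at 90.2, 29.7 and 75.7 CPM for Msln, Upk3b and Lrrn4. The SHR medians were 90.1, 28.8 and 61.8 CPM. For Upk1b, Krt18, Krt19 and Tbx18 the ARNI median was below the SHR median. The ARB median was below the SHR median for each of the genes with the WKY group lowest and the SHR group highest.

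Many of the other mesothelial genes were also higher in SHR libraries. Of 21 further mesothelial and epicardial genes, Itln1 had no read in any library and 16 passed the filter on low counts. This list was also chosen with earlier results of these data known. Between the SHR and WKY groups, 10 of the 16 were called higher and 1 lower, beside 5.54% and 3.35% of all genes tested, and the median log2 fold change was 1.80. Crb2 (2.57, SE 0.49), Krt8 (2.45, 0.39), Bnc1 (2.43, 0.47), Muc16 (2.23, 0.32) and Cldn15 (2.23, 0.34) rose most (adjusted p of 0.0185, 0.0119, 0.0198, 0.00916 and 0.0105, edgeR). Muc16, a mucin of mesothelial surfaces, was at 13.1, 14.3 and 9.15 CPM in WKY libraries, 46.5, 45.8 and 99.4 CPM in SHR libraries, 32.9, 69.1 and 12.0 CPM in ARB libraries and 65.5, 6.60 and 63.2 CPM in ARNI libraries. Its levels were lowest in ARNI replicate 2, WKY replicate 3 and ARB replicate 3, as were those of Lrrn4. Krt8, the keratin that pairs with Krt18, was at 2.47, 0.783 and 2.31 CPM in WKY libraries, against 9.76, 10.2 and 13.9 CPM in those of the SHR group.

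Aldh1a2, which makes retinoic acid in the epicardium, rose as well (log2 fold change 1.94, SE 0.44, edgeR adjusted p = 0.0294). Gpm6a, Nkain4, Myrf and Rspo1 were the other called genes that rose. Podxl, a sialomucin of endothelium and podocytes as well as mesothelium, was the gene that fell (log2 fold change -1.13, SE 0.16, edgeR adjusted p = 0.00900). It was at 154, 166 and 211 CPM in WKY libraries, 81.7, 96.0 and 89.3 CPM in SHR libraries and 143 CPM in ARNI replicate 2. Of the genes not called, Ezr had a log2 fold change of 0.47, Efemp1 of 0.99 and Pdpn of 0.99, the last with an adjusted p of 0.0513. Slpi was at -0.95 and Sema3d at 0.02. Calb2, another mesothelial marker, was at most at 0.348 CPM. In the comparisons with the treated groups 0 of the 16 were called, and 0 had an unadjusted p under 0.05.

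**Figure D3:**
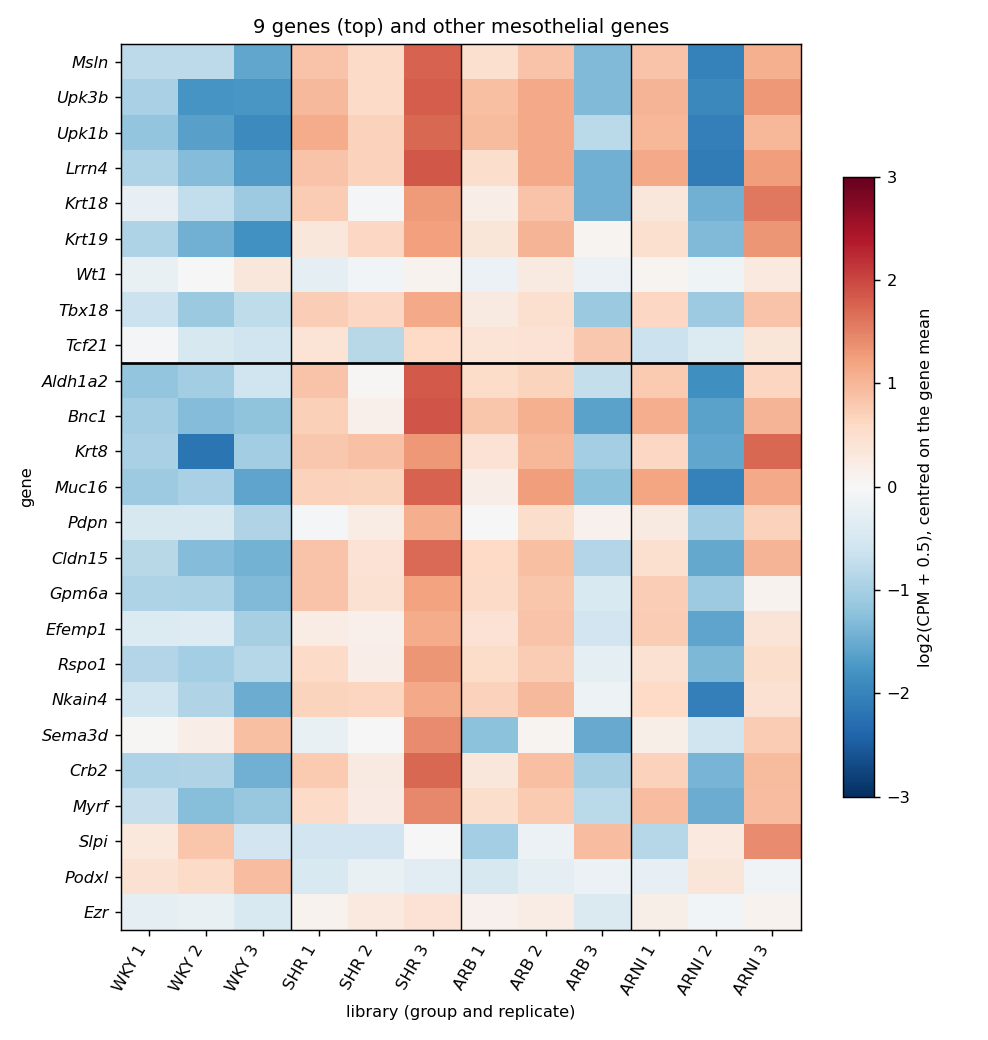
Log2(CPM + 0.5) centred on the mean of each gene (colour) for the 9 genes above the line and the 16 of the 21 further mesothelial genes with a mean of at least 1 CPM below it (rows), in the 12 libraries (columns). The WKY libraries, ARB replicate 3 and ARNI replicate 2 are blue for Msln, Upk3b, Upk1b, Lrrn4, Tbx18, Muc16 and Bnc1, and Wt1 is close to 0 throughout.

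Of 18 genes of epicardial transcription and mesenchymal transition, all were tested, and 1 was called between the SHR and WKY groups, beside 8.89% of all genes. It was Bnc2, a zinc finger gene related to Bnc1 (log2 fold change 2.29, SE 0.36, edgeR adjusted p = 0.0117). It was at 1.62, 2.27 and 1.92 CPM in WKY libraries, 10.5, 5.74 and 15.6 CPM in SHR libraries, 4.44 CPM in ARB replicate 3 and 0.65 CPM in ARNI replicate 2. Zeb2 had an adjusted p of 0.00569 with a log2 fold change of 0.96, just under the threshold. The median log2 fold change over the 18 was 0.11, and Gata4, Gata6, Snai1, Twist1, Tgfbr3 and Vim had log2 fold changes between 0.00 and 0.31 and did not pass. Tead1, which binds the TEAD motif searched above, had a log2 fold change of -0.42 (SE 0.12, edgeR adjusted p = 0.0533). In the comparisons with the treated groups 0 of the 18 were called. At an unadjusted p under 0.05 there were 0 for ARB against SHR, 0 for ARNI against SHR and 1 for ARNI against ARB. The shares of all genes tested were 1.61%, 1.63% and 3.86%. That gene was Tead1, with a log2 difference of 0.75 (SE 0.23, unadjusted p = 0.0148, adjusted p = 0.993, edgeR).

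The mesothelial surface genes were also set beside the chamber markers library by library. The chamber score was the mean centred log2 CPM of the 5 atrial markers minus that of the 4 ventricular markers. The surface level was the mean centred log2 CPM of 6 genes (Msln, Upk3b, Upk1b, Lrrn4, Krt18 and Krt19). The 3 WKY libraries and ARNI replicate 2 had scores of -11.7 to -9.67 and surface levels of -1.998 to -0.84. The 6 libraries with scores of 5.43 to 8.77 had surface levels of 0.63 to 1.70. SHR replicate 2 and ARB replicate 3 had nearly equal chamber scores, -0.52 and -0.25, but surface levels of 0.56 and -1.17. SHR replicate 2 had 3.78 times the Msln level of ARB replicate 3, 3.95 times its Upk3b, 2.95 times its Upk1b and 4.54 times its Lrrn4. The ratio was 5.97 for Krt18, 1.45 for Krt19, 3.50 for Tbx18, 1.07 for Wt1 and 0.310 for Tcf21. These 2 libraries are single samples of different groups, so the difference has no replicate check.

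**Figure D4:**
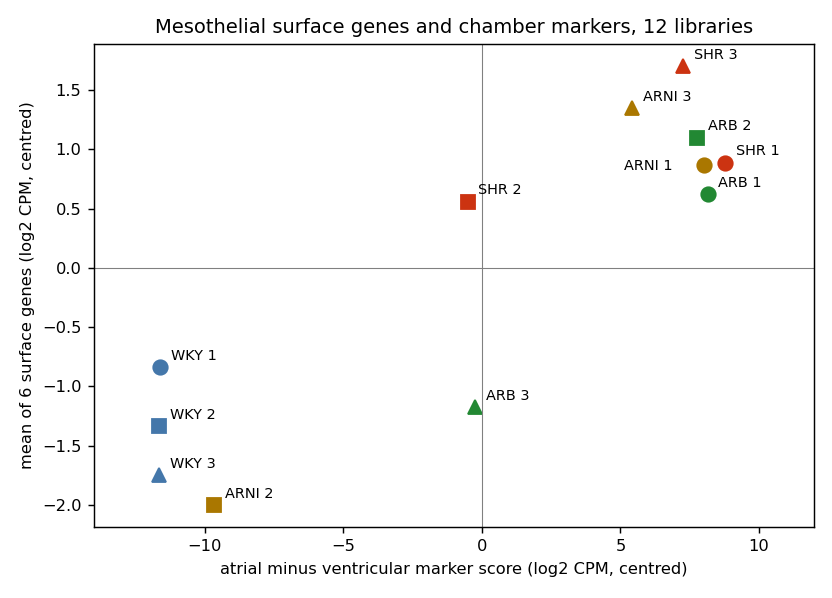
Mean centred log2 CPM of 6 mesothelial surface genes (y axis) against the atrial minus ventricular marker score (x axis), with 1 point per library, coloured by group and labelled. The WKY libraries and ARNI replicate 2 are at the lower left, and SHR replicate 2 (0.56) and ARB replicate 3 (-1.17) differ at nearly the same score.

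In a fit of 12 libraries with the chamber score as covariate, 0 of the 9 genes were called between the SHR and WKY groups, beside 0.81% of all genes, with log2 fold changes of -0.63 for Msln, -0.31 for Upk3b, 0.06 for Upk1b, -0.51 for Lrrn4, -1.95 for Krt18, 0.64 for Krt19 and 0.0025 for Tbx18. No score is shared between WKY and SHR, so these values are extrapolated. In the same fit 0 of the 9 were called in the treatment comparisons.

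Likeness of pattern was measured as the root mean square difference of centred log2 CPM over the 12 libraries, among 13542 genes with a mean of at least 1 CPM. The genes most like Msln were Tcf23 (0.21), Muc16 (0.22) and Crb2 (0.22), where the spread of Msln itself on this scale was 1.19. Those most like Lrrn4 were Muc16 (0.18), Crb2 (0.20) and Upk3b (0.22). Upk3b was closest to Upk1b (0.22), Lrrn4 (0.22) and Bnc1 (0.29), and Upk1b to Upk3b (0.22), Sema3a (0.27) and Lrrn4 (0.31). Of the keratins, Krt18 was closest to Mpzl2 (0.34), Slc39a8 (0.44) and Msln (0.46), and Krt19 to Krt13 (0.33), Ca9 (0.33) and Ociad2 (0.34). Tbx18 was closest to Lsr (0.21), Cdon (0.26) and Efna5 (0.26), and Tcf21 to Rnase4 (0.22), Il17d (0.22) and Evc (0.23). Wt1 had a spread of 0.21, and its closest genes were Zfp335 (0.12), Tbc1d15 (0.13) and Cabin1 (0.13).

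Markers of other epithelia, which also carry keratins, were measured in the same libraries. No marker particular to the bladder lining, where uroplakins were first known, was among them. Epcam, Cdh1, Esrp1 and Cldn4 together summed to 0.170 to 4.48 CPM over the 12 libraries, with Cldn4 at most at 0.0889 CPM. The highest sum was in ARNI replicate 3 (Cdh1 at 3.26 CPM), the library with the highest Krt18 (5.50 CPM) and Krt19 (43.1 CPM). The next highest sum, 2.22 CPM, was in WKY replicate 3, where Krt19 was lowest (4.44 CPM). The part of other epithelia in the keratin levels was not tested. The 5 lung epithelial markers summed to 3.68 to 7.29 CPM in 11 libraries, nearly all of it Ager, and to 38.7 CPM in WKY replicate 3, where Sftpc was at 7.73 CPM, beside at most 0.0852 CPM elsewhere. The surface genes were low in that library.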

How the data were processed

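RNA of left atria was sequenced as single-end reads of 50 bases. Reads were cleaned by the authors (SOAPnuke) and aligned to the genome by HISAT2 2.0.4 and to genes by Bowtie2 2.2.5 (build Rnor_6.0, per the submitters' processing notes). The deposited values are RSEM expected counts, not normalized. The annotation is not given in the sources used here. The deposited table lists 37246 genes, of which 16007 have no counts, and 23.6% of the values were not whole (tolerance 1e-06). Its columns of the authors' own comparison of SHR and WKY, a log2 fold change and a p-value, were not used. Symbols come from the table.

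Expected counts were rounded, genes with low counts were removed by filterByExpr, TMM factors were applied, and each pair of groups was fitted on its 6 libraries by the quasi-likelihood test of edgeR 4.0.16 (R 4.3.3), adjusted over all genes by Benjamini-Hochberg. A call needed an adjusted p no higher than 0.05 and a log2 fold change of 1 or more in size. Standard errors (SE) were derived from the F statistic. CPM used library totals, which ranged from 11252361 to 15823525, so that 3 counts stood for 0.190 to 0.267 CPM. Counting error is all that this limit covers. Alternatives were DESeq2 1.42.0, no scaling factors, no filter, 12 libraries in 1 fit, the chamber score as covariate, the replicate number as a block, and each library left out. Only the edgeR steps of the SHR and WKY comparison were tested on simulated counts, with the same dispersion for every gene and both groups. In the real data the replicates of the SHR group differed more than those of the WKY group. DESeq2, the fits of 12 libraries and the scores were not simulated. No 2 replicates of a group agreed within sampling noise (chi-square per degree of freedom of at least 4.03).

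The 9 genes and the lists were chosen with earlier results of these data known. All 9 are named, with up to 5 called genes of a list by size and up to 4 others by level, and the 3 genes of most similar pattern. Further genes of the lists were named after their values were seen. Labels do not say that replicate numbers pair rats. Deviations of same-numbered libraries from their group means had correlations across genes of 0.51, 0.46 and 0.19 between the ARNI and SHR groups, and not all over 0.1 in the other comparisons. Libraries of unlike number also correlated, with 0.51 for ARB replicate 3 and SHR replicate 2. The value was 0.58 for ARNI replicate 2 and ARB replicate 3. All of these libraries held ventricular transcripts. The numbers were therefore not taken as pairs, and the block on them was an alternative only. Between the ARNI and SHR groups the block changed no call of the 9 genes. Sums, ratios and plots were made in Python 3.11.15 (pandas 2.3.3, numpy 2.4.6, matplotlib 3.10.9).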

Additional observations from a re-analysis of the deposited data

How the results depend on the processing

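Of the 9 genes, 6 were called between the SHR and WKY groups, 7 with DESeq2 or without scaling factors, 6 without a filter, 5 with the replicate block, 2 in 1 fit of 12 libraries (Upk1b and Krt19) and 0 with the marker score as covariate. Leaving out 1 library gave 2 to 7, with 2 without WKY replicate 2, 3 without WKY replicate 3, 5 without WKY replicate 1 and 7 without SHR replicate 2. With the score as covariate the direction turned for Msln (-0.63), Upk3b (-0.31), Lrrn4 (-0.51) and Krt18 (-1.95), values extrapolated beyond the scores the groups share. In all genes, 1226 were called (8.89%), against 1601 with DESeq2 (10.4%), 579 in 1 fit (4.01%) and 117 with the score (0.81%). With the block 681 were called, and with 1 library left out 348 to 2205. That range holds 353 without WKY replicate 2 (2.49%) and 348 without WKY replicate 3 (2.46%). The other shares are not given. The number over all genes also moved widely with the library left out, so changes in the count of the 9 are not read as particular to them. Over all genes the median log2 difference was 0.15 without scaling factors and 0.01 with them.

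Over the 4 groups, 0 of the 9 passed, against 3 with DESeq2, 0 to 5 with 1 library left out and 6 without SHR replicate 2, ARB replicate 3 and ARNI replicate 2, chosen after seeing the data. In all genes, 515 passed, against 2536 with DESeq2, 45 with the score, 35 to 2091 with 1 library left out and 4186 without those 3 libraries.

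In the treatment comparisons 0 of the 9 were called under any alternative, and DESeq2 called 3, 7 and 18 of all genes (ARB against SHR, ARNI against SHR and ARNI against ARB). Some values changed sign, and the cause was not tested. With 1 library left out, ARB against SHR ranged from -0.47 to 0.032 for Krt19, -0.021 to 0.17 for Wt1 and 0.15 to 0.68 for Tcf21. Tcf21 was at -0.045 without both SHR replicate 2 and ARB replicate 3, a choice made after seeing the data. ARNI against SHR ranged from -1.24 to 0.41 for Krt18 (0.25 with the score) and -0.88 to 0.21 for Krt19. ARNI against ARB ranged from -0.16 to 0.72 for Msln, -0.33 to 0.61 for Upk3b, -0.51 to 0.37 for Upk1b, -0.13 to 0.81 for Lrrn4, -0.49 to 1.30 for Krt18 and -0.64 to 0.43 for Krt19. There Upk3b was at -0.0072 with the block, Upk1b at 0.22 with the score, and Krt19 at -0.23 with the block, -0.019 without scaling factors, -0.0019 without a filter and -0.0022 in 1 fit. Krt18, with 3 to 81 counts a library, is the gene that depth limits most.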

Other observations

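The adipocyte markers, which bear on how much fat under the epicardium a piece held, differed widely between libraries. Adipoq was at 192 CPM in ARB replicate 2 and 61.7 CPM in ARNI replicate 3, and at most at 4.71 CPM in the other 10 libraries. Both libraries were among those with higher mesothelial levels (Krt19 at 34.5 and 43.1 CPM), but SHR replicate 3, with the highest Msln of all, had no Adipoq read, which allows up to 0.203 CPM. S100b, carried by Schwann cells and adipocytes, was also highest in ARB replicate 2 (26.0 CPM) and ARNI replicate 3 (14.9 CPM). The part of fat in the mesothelial levels was not tested.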
